A study of Drosophila melanogaster with 12 samples.

Results

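Iml1 is a subunit of GATOR1, a protein complex that holds back TORC1, and it is described here with the nutrient sensing genes around it: Nprl2, Nprl3, Tor, raptor, S6k, Tsc1, gig, Rheb and Sesn. The 10 genes were chosen by function around Iml1, which itself was picked for its higher level on high-sugar diet at 4 weeks in these same arrays. A gene was taken as measured where a probe set, the group of short probes for a transcript on an Affymetrix array, was annotated to it alone, and the brightest would have been kept had there been several. Each of 9 genes had exactly 1 such probe set, and all 9 also passed the filter on low values, out of 10418 genes tested in all. Rheb was not analysed here. Tor is listed as mTor in the current annotation, and gig is the fly Tsc2.

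The samples were homogenised adult males, with no dissection named, of the wild-type Drosophila melanogaster strain Canton-S, in 4 groups of 3 arrays. Males aged 3 to 5 days were put on control or high-sugar food and killed after 2 days, at 5 to 7 days of age, or after 4 weeks, at 31 to 33 days of age. The labels give no transgene or mutation for any group, and diet and feeding time were the only labelled differences. The labels call the 3 arrays of a group biological replicates and do not say how many flies each held. Age and feeding time changed together, so they cannot be told apart, and whole animals cannot separate fewer cells of a type from less RNA per cell.

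TORC1 is a protein kinase complex that promotes growth, protein synthesis and ribosome production when amino acids and insulin signals are plentiful, and restrains autophagy. Amino acids act through the Rag GTPases at the lysosome: GATOR1 (Iml1, Nprl2 and Nprl3) switches them off, GATOR2 counters GATOR1, and Sestrin, made by Sesn, acts through GATOR2. Insulin and energy signals act through Rheb, a small GTPase that activates the kinase Tor and is switched off by the complex of Tsc1 and gig. S6k is a kinase phosphorylated by TORC1, and much of this control acts on proteins, which arrays do not measure.

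Array medians lay between an intensity of 86.97 and 93.42, on a linear scale with no absolute meaning, so levels are compared within a gene and never between genes. The number of arrays limits every comparison. The standard error (SE) of a difference between 2 groups on the log2 scale had a median of 0.13 over all genes, and among the members other than Iml1 it ran from 0.09 for Tor to 0.24 for raptor. Summed intensities of listed tissue markers that passed the filter on low values differed between diets in the 4-week arrays. The 5 tested of 6 neuronal markers summed to between 1604 and 2123 on control and 2487 to 2610 on high-sugar diet, and the 4 tested of 6 muscle markers to 6400 to 6866 and 7263 to 9200. The 2 tested of 5 photoreceptor markers summed to 1603 to 2345 and 2433 to 2629. The 4 tested of 5 midgut markers summed to 31220 to 36019 and 21953 to 26433, without overlap. The 10 testis markers (21919 to 23885 and 20034 to 22254), the 5 accessory gland markers (24116 to 30685 and 23037 to 27952) and the 4 tested of 5 fat body markers (32546 to 42855 and 33336 to 35266) overlapped between diets. At 4 weeks 1 neuronal and 1 photoreceptor marker rose and 2 midgut and 1 fat body marker fell with high sugar in limma, beside 1.93% of all genes called. Among single genes 14.2% did not overlap between diets at 2 days and 23.3% at 4 weeks, and no such share was counted for sums. At 2 days the neuronal sums also did not overlap, with 2050 to 2114 on control and 2200 to 2455 on high-sugar diet, the same arrays that give the 2-day values of Iml1, and the sums of the other 6 lists overlapped. No value of a tested marker stood at or under the floor of 11.8 in any array, and the part of tissue makeup in the results below was not tested.

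Within GATOR1, the transcript of Iml1 stood far above all other arrays on high-sugar diet at 4 weeks, while for its partners Nprl2 and Nprl3 no diet difference passed the test. At 2 days the intensity of Iml1 was 284, 285 and 291 on the 3 control arrays and 307, 335 and 334 on the high-sugar arrays. At 4 weeks it was 288, 229 and 360 on control and 894, 733 and 871 on high-sugar diet. The lowest high-sugar array at 4 weeks lay above the highest of the other 9 arrays by a wide margin, and the control arrays at 4 weeks were more spread than those of any other group relative to their mean.

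The group means of Iml1 were, from low to high, 287 ± 3.75 for control at 2 days, 292 ± 65.8 for control at 4 weeks, 326 ± 15.7 for high sugar at 2 days and 833 ± 87.1 for high sugar at 4 weeks (SD, n = 3 arrays each). The arrays of control at 4 weeks spanned those of both 2-day groups, so the order of the lower 3 groups is not resolved. The value that chose Iml1 is given as a description without a test: high sugar over control at 4 weeks was 1.53 (SE 0.14) on the log2 scale, or 2.89-fold. Of 10418 genes, 5 had a larger positive change in that contrast and 31 a larger change in either direction. Leaving out 1 array at a time gave 1.37 to 1.69, the lowest without control array 2 and the highest without control array 3 at 4 weeks.

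The arrays of 2 days did not take part in that choice. There Iml1 was higher on all 3 high-sugar arrays than on any control array, by a log2 fold change of 0.18 (SE 0.14, 95% interval -0.13 to 0.49), which did not pass in limma (adjusted p = 0.827 over all genes). The fold was 1.13, and 1287 genes had a larger positive one. The SE and interval of this 2-day difference also draw on the spread of the 4-week arrays. With only the arrays compared in the fit, the limma adjusted p was 0.636. Between feeding times the control arrays differed by a log2 of 0.00082 and the high-sugar arrays by 1.35, each with SE 0.14, again as descriptions because the 4-week arrays chose the gene. The diet contrast at 4 weeks exceeded that at 2 days by 1.35 on the log2 scale (SE 0.20).

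**Figure D1:**
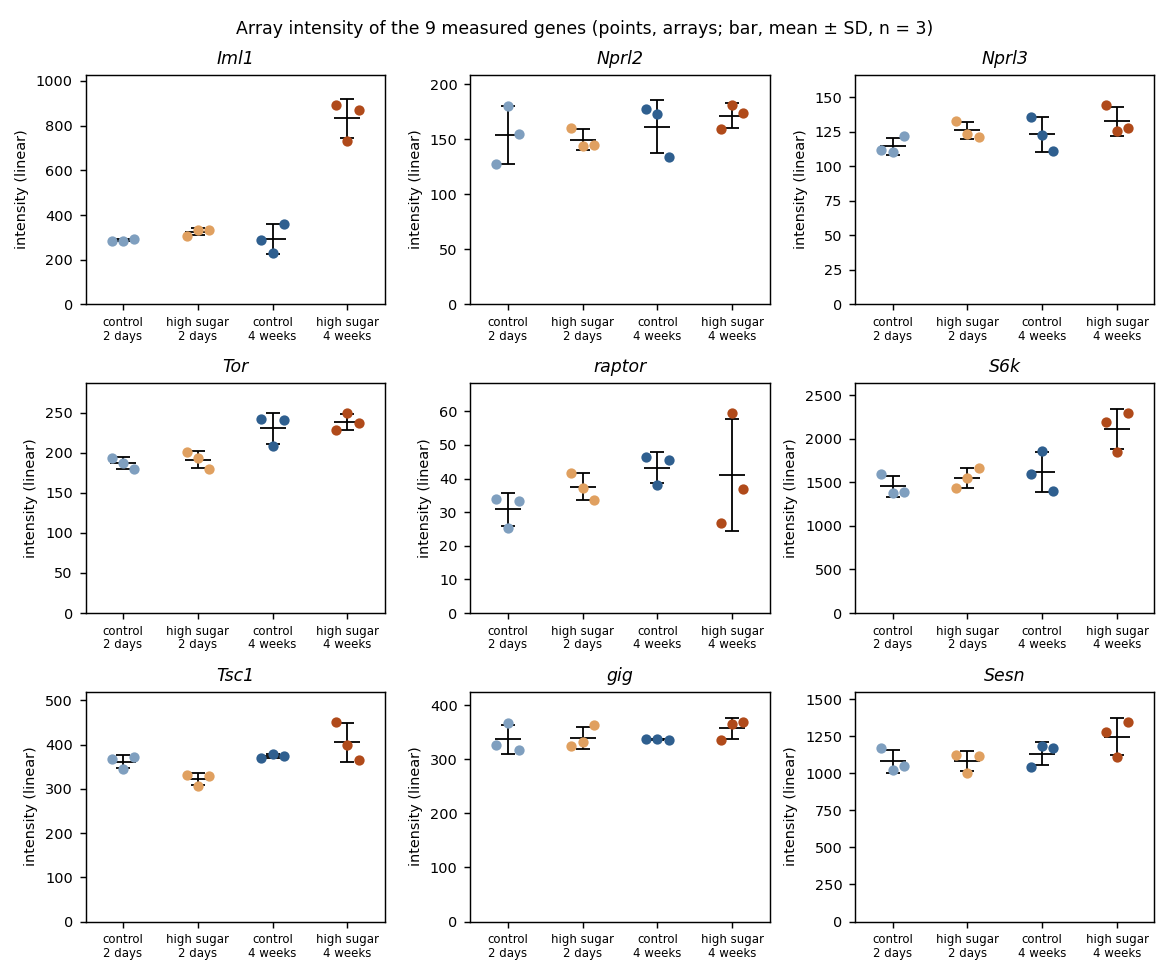
Linear array intensity of the 9 measured genes in the 4 groups of diet and feeding time. Points are arrays, and the bar gives the mean and SD of 3 arrays. Iml1 lies between 733 and 894 on high-sugar diet at 4 weeks and between 229 and 360 on the other 9 arrays, a separation that none of the other genes shows between diets at 4 weeks.

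Nprl2, the GATOR1 subunit thought to carry its activity on the Rag GTPases, showed no diet difference beyond its spread. Its intensity was 128, 180 and 155 on control and 160, 144 and 145 on high-sugar arrays at 2 days. After 4 weeks the values were 178, 173 and 134 on control and 159, 182 and 174 on high-sugar arrays. Both pairs of groups overlapped. The log2 fold change for diet was -0.03 at 2 days (95% interval -0.33 to 0.27, limma adjusted p = 0.987) and 0.10 at 4 weeks (-0.20 to 0.39, limma adjusted p = 0.728).

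Nprl3, the partner of Nprl2, gave 112, 110 and 122 on control and 133, 123 and 121 on high-sugar arrays at 2 days. The 4-week intensities were 136, 123 and 111 on control and 145, 125 and 128 on high-sugar arrays. The groups touched or overlapped at both times. The log2 fold change was 0.14 at 2 days (-0.09 to 0.36, limma adjusted p = 0.815) and 0.11 at 4 weeks (-0.11 to 0.33, limma adjusted p = 0.570). The upper ends of the 4-week intervals correspond to 1.31-fold for Nprl2 and 1.26-fold for Nprl3.

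The probe set of Iml1 is marked by the array's maker as shared by several transcripts of the gene, of which the RefSeq table lists 5. Its value therefore does not say which transcript was higher. The neighbours of Iml1 on the chromosome, looked at after its values were seen, had no change of like size. On one side, cue had 2175, 1916 and 2319 on control and 2429, 2569 and 2887 on high-sugar arrays at 4 weeks (log2 fold change 0.30, limma adjusted p = 0.132), Psa a log2 fold change of 0.08 and hfp one of 0.18. On the other, CG12091 had -0.07 and pns 0.31, and none of the 5 passed in limma (adjusted p from 0.132 to 0.632). Ir62a, which overlaps Iml1, was not analysed here.

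No diet difference passed for the kinase gene Tor or its partner raptor, and Tor rose between 2 days and 4 weeks. Tor had 194, 187 and 179 on control and 201, 194 and 180 on high-sugar arrays at 2 days. By 4 weeks the arrays read 242, 209 and 241 on control and 229, 250 and 237 on high-sugar arrays. All 6 arrays of 4 weeks were above all 6 arrays of 2 days, and the diets overlapped at each time. The share of all genes without overlap between feeding times was not counted. In limma 33.1% of all genes passed for time on control and 42.6% on high-sugar diet. The log2 fold change for diet was 0.03 at 2 days (-0.17 to 0.23, limma adjusted p = 0.970) and 0.05 at 4 weeks (-0.15 to 0.25, limma adjusted p = 0.788).

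From 2 days to 4 weeks Tor rose by 0.30 on the log2 scale on control diet (SE 0.09, limma adjusted p = 0.0256) and by 0.32 on high-sugar diet (limma adjusted p = 0.0151), that is 1.23-fold and 1.25-fold. The call on control diet was lost without control array 2 (adjusted p = 0.0508) or 3 (0.0920) at 2 days or control array 1 (0.0889) or 3 (0.0610) at 4 weeks, and with only the 6 arrays compared (0.0693). The call on high-sugar diet was lost without array 3 at 2 days (0.0516) or array 2 at 4 weeks (0.0600). No date or batch is given for the arrays, so a processing difference between the feeding times cannot be told apart from time.

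The raptor gene, whose protein brings substrates to the kinase, was measured near the bottom of the scale. It had 33.8, 25.2 and 33.4 on control and 41.7, 37.3 and 33.7 on high-sugar arrays at 2 days. At 4 weeks it had 46.5, 37.9 and 45.4 on control and 26.8, 59.5 and 36.8 on high-sugar arrays. The 4-week high-sugar arrays ranged on both sides of the control arrays, with an SD of 40.8% of their mean. The log2 fold change for diet was 0.30 at 2 days (-0.23 to 0.82, limma adjusted p = 0.838) and -0.15 at 4 weeks (-0.68 to 0.38, limma adjusted p = 0.759), and the latter turned to 0.12 without high-sugar array 1 at 4 weeks.

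A second probe set is annotated to both Mipp2 and raptor, so its signal cannot be assigned to either and was not tested. Its intensity was 553, 621 and 556 on control and 596, 602 and 638 on high-sugar arrays at 2 days. After 4 weeks the values were 596, 572 and 572 on control and 627, 622 and 631 on high-sugar arrays. The diets overlapped at 2 days and did not overlap at 4 weeks, where the ratio of means was 1.08. At 4 weeks 23.3% of all genes tested had no overlap.

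S6k, the kinase that TORC1 phosphorylates to promote translation, had the largest diet difference after Iml1 among the members, but it did not pass. Its intensity was 1593, 1379 and 1383 on control and 1433, 1547 and 1666 on high-sugar arrays at 2 days. The 4-week intensities were 1600, 1859 and 1400 on control and 2193, 1853 and 2294 on high-sugar arrays. A single pair of arrays made the 4-week groups overlap, high-sugar array 2 just under control array 2. At 4 weeks the diet difference was 0.39 on the log2 scale (SE 0.12, 95% interval 0.13 to 0.65), with an unadjusted p of 0.00653 and a limma adjusted p of 0.117. At 2 days it was 0.09 (-0.17 to 0.35, limma adjusted p = 0.914).

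Over time on high-sugar diet S6k rose by 0.45 on the log2 scale, 1.36-fold (SE 0.12, limma adjusted p = 0.00999). Every high-sugar array of 4 weeks lay above every one of 2 days, and the call held under all 23 alternatives tried. Of all genes, 42.6% passed for time on high-sugar diet, and the share without overlap between feeding times was not counted. On control diet the value was 0.15 (-0.11 to 0.41, limma adjusted p = 0.345). The difference between these time contrasts, the same quantity as the difference between the diet contrasts, was 0.29 (-0.07 to 0.66) and did not pass (limma adjusted p = 0.701).

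Among the inhibitors upstream of Rheb, Tsc1 rose with time on high-sugar diet and gig passed no test. Tsc1 had 367, 344 and 372 on control and 330, 307 and 329 on high-sugar arrays at 2 days. By 4 weeks the arrays read 369, 379 and 374 on control and 452, 399 and 365 on high-sugar arrays. At 2 days every high-sugar array was below every control array, a log2 fold change of -0.16 (-0.37 to 0.04, limma adjusted p = 0.708), while at 4 weeks the groups overlapped with 0.11 (-0.10 to 0.32, limma adjusted p = 0.535).

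The difference of these diet contrasts of Tsc1 was 0.28 (-0.02 to 0.57, limma adjusted p = 0.679). On high-sugar diet Tsc1 rose from 2 days to 4 weeks by 0.33 on the log2 scale, 1.25-fold (SE 0.10, limma adjusted p = 0.0159). This call was lost without high-sugar array 2 at 2 days (adjusted p = 0.0625) or array 1 at 4 weeks (0.0708). On control diet the time contrast was 0.05 (limma adjusted p = 0.704).

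The gig gene, which encodes the GTPase activating partner of Tsc1, had 327, 368 and 318 on control and 325, 332 and 364 on high-sugar arrays at 2 days. At 4 weeks it had 338, 337 and 336 on control and 336, 366 and 370 on high-sugar arrays. All 4 groups overlapped, and the 4-week control arrays sat almost on one value, with an SD of 0.271% of the mean. The log2 fold change for diet was 0.01 at 2 days (-0.19 to 0.21, limma adjusted p = 0.994) and 0.08 at 4 weeks (-0.12 to 0.28, limma adjusted p = 0.642). With time it was -0.00015 on control diet (limma adjusted p = 0.999) and 0.07 on high-sugar diet (limma adjusted p = 0.565).

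Sesn encodes Sestrin, a stress-induced inhibitor of TORC1 that in mammals also serves as a leucine sensor. Its intensity was 1169, 1023 and 1050 on control and 1121, 1002 and 1117 on high-sugar arrays at 2 days. After 4 weeks the values were 1042, 1183 and 1167 on control and 1280, 1107 and 1348 on high-sugar arrays. The groups overlapped at both times, and on high-sugar diet at 4 weeks array 2 was the lowest of the 3, as it was for Iml1, Nprl3 and S6k. That array was the highest of its group for Nprl2, Tor and raptor, and lay between the others for Tsc1 and gig. For diet the log2 fold change was -0.00011 at 2 days (-0.22 to 0.22, limma adjusted p = 0.9998) and 0.14 at 4 weeks (-0.09 to 0.36, limma adjusted p = 0.472).

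Set side by side, the diet contrasts gave no call among the members that were open to a test. At 2 days 0 of 9 members passed in limma beside 0.144% of all genes. An unadjusted limma p under 0.05 was found for 0 of 9, beside 866 of 10418 genes. At 4 weeks 0 of 8 members without Iml1 passed beside 1.93% of all genes. There 1 of 8, S6k, had an unadjusted limma p under 0.05, beside 2069 of 10418 genes. For the difference of the diet contrasts 0 of 8 passed beside 0% of all genes, with 0 of 8 members and 757 of 10418 genes at an unadjusted p under 0.05. The median log2 fold change of these 8 was 0.02 at 2 days and 0.10 at 4 weeks, beside -0.0040 and 0.01 over all genes, and 5 of 8 had a positive value at 2 days and 7 of 8 at 4 weeks, beside 48.8% and 52.1% of all genes. Groups that did not overlap were found for 2 of 9 members at 2 days, Iml1 and Tsc1, beside 14.2% of all genes, and at 4 weeks for Iml1 alone, beside 23.3%. That last count includes the gene chosen for it.

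**Figure D2:**
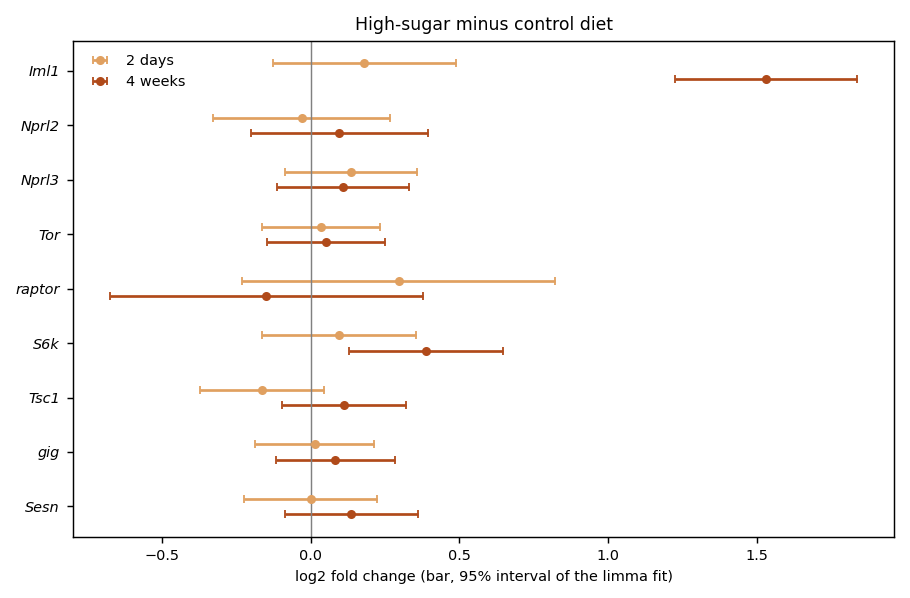
Log2 fold change of high-sugar over control diet for the 9 measured genes at 2 days and at 4 weeks, with the 95% interval of the limma fit. Iml1 at 4 weeks, the value it was chosen for, lies at 1.53, and of the other 17 values the interval of S6k at 4 weeks alone leaves out 0.

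On control diet 1 of 8 members, Tor, passed and was higher at 4 weeks, beside 33.1% of all genes (1488 higher and 1961 lower). On high-sugar diet 3 of 8, Tor, S6k and Tsc1, passed, each higher at 4 weeks, beside 42.6% of all genes (2068 higher and 2370 lower). The members gave no call for time in the other direction, and the remaining values on high-sugar diet ran from 0.05 for raptor to 0.20 for Nprl2 and Sesn. The log2 median of the 8 was 0.08 on control and 0.20 on high-sugar diet, beside -0.01 and 0.03 over all genes. Tissue marker sums moved with feeding time as well. On control diet those of the accessory gland went from 47442 to 51822 at 2 days to 24116 to 30685 at 4 weeks, of muscle from 10610 to 12692 to 6400 to 6866 and of testis from 28984 to 30210 to 21919 to 23885, while the other 4 lists overlapped. On high-sugar diet these 3 lists, fat body and midgut were lower and neurons higher at 4 weeks without overlap, and photoreceptor sums overlapped. The part of tissue makeup in the rises of Tor, S6k and Tsc1 was not tested. The 2-day and 4-week high-sugar arrays enter both the diet and the time contrasts, so these values are not independent of each other.

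**Figure D3:**
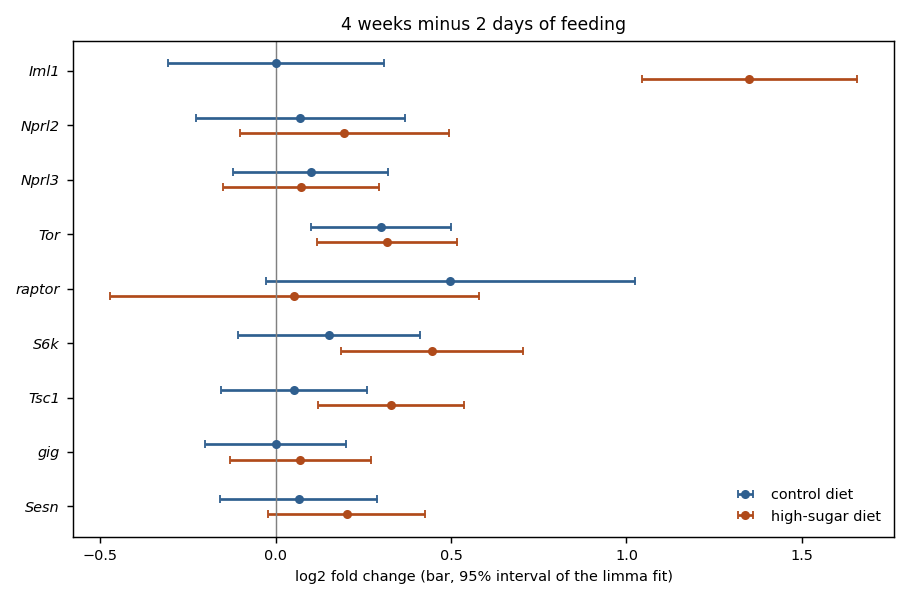
Log2 fold change from 2 days to 4 weeks of feeding for the 9 measured genes on control and on high-sugar diet, with the 95% interval of the limma fit. Tor lies at 0.30 and 0.32 on the respective diets, whereas S6k (0.15 and 0.45) and Tsc1 (0.05 and 0.33) have intervals away from 0 on high-sugar diet alone, and the difference between diets passed for neither of these 2.

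The wider network was described from a list of 47 further genes around TORC1, of which 38 were measured. None passed for diet in limma at either time, beside 0.144% of all genes at 2 days and 1.93% at 4 weeks. At 2 days 4 of 38 had an unadjusted limma p under 0.05, beside 8.31% of all genes. At 4 weeks it was 10 of 38, beside 19.9%. The median log2 fold change was 0.05 at both times. Values above 0 were found for 27 of 38 at 2 days and 25 of 38 at 4 weeks, beside 48.8% and 52.1% of all genes. The 5 GATOR2 genes, whose proteins oppose GATOR1, all had values below 0 at 4 weeks, with a median of -0.17, and 3 of 5 were below 0 at 2 days. The lowest was mio at -0.32 (limma adjusted p = 0.187), with 263, 278 and 358 on control and 238, 228 and 247 on high-sugar arrays at 4 weeks. Those groups did not overlap, as for 23.3% of all genes at 4 weeks, and control array 3 stood apart from the other 2. Of the others in the list, Wdr24 had -0.29, Nup44A -0.17, Wdr59 -0.16 and Sec13 -0.03. The 4-week groups of Wdr24 and Wdr59 did not overlap either.

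The 5 measured transcription factors that act downstream of TORC1 or insulin all had values above 0 at both times, with medians of 0.10 and 0.29. Above 0 at 2 days and 4 weeks were 27 and 25 of the 38 network genes, beside 48.8% and 52.1% of all genes. REPTOR-BP, the partner of REPTOR, a factor that TORC1 keeps out of the nucleus, had 678, 654 and 609 on control and 745, 888 and 1003 on high-sugar arrays at 4 weeks. The groups did not overlap, as for 23.3% of all genes at 4 weeks, with a log2 fold change of 0.43 (SE 0.13, limma adjusted p = 0.113). Named after their values were seen, REPTOR had 0.33 at 4 weeks and the insulin-responsive factor foxo 0.38 at 2 days and 0.29 at 4 weeks. Mitf had 0.10 and 0.24 and crc 0.01 and 0.05 at these times, and none of these genes passed.

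Atg17, a scaffold of the kinase complex that starts autophagy, had the largest diet values of the 38. Its intensity was 101, 127 and 165 on control and 204, 189 and 177 on high-sugar arrays at 2 days. The 4-week intensities were 327, 280 and 231 on control and 368, 373 and 454 on high-sugar arrays. Neither pair of groups overlapped, beside 14.2% of all genes without overlap at 2 days and 23.3% at 4 weeks. The log2 fold change was 0.57 at 2 days (limma adjusted p = 0.320) and 0.52 at 4 weeks (limma adjusted p = 0.134). Of the other 5 autophagy genes, named after their values were seen, Atg9 (-0.33 and -0.28) and Atg13 (-0.24 and -0.31) had negative values at both times, and none passed.

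In the remaining lists, rictor, which encodes a subunit of the related complex TORC2, had diet values of 0.04 at 2 days and 0.49 at 4 weeks on the log2 scale (limma adjusted p = 0.143 at 4 weeks). The amino acid transporter gene mnd had 0.22 and 0.27 (limma adjusted p = 0.149 at 4 weeks). The stress gene scyl, whose product restrains TORC1 through Tsc1 and gig, had 0.01 and 0.26 (limma adjusted p = 0.153 at 4 weeks). Lst8, a subunit shared by both Tor complexes, had 0.04 and 0.18, and the amino acid response kinase gene Gcn2 0.12 and 0.21. For Samtor, which encodes a sensor of S-adenosylmethionine, the values were -0.18 and -0.03. Largest in their lists were Lamtor4 (-0.27) at 2 days and Lamtor1 (0.15) at 4 weeks for the Ragulator, Wdr24 (0.17) for GATOR2, Sin1 (0.13) for TORC2 and alc (0.18) for the stress inputs at 2 days, and Maf1 (0.15 and 0.15) for translation, none of which passed in limma.

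**Figure D4:**
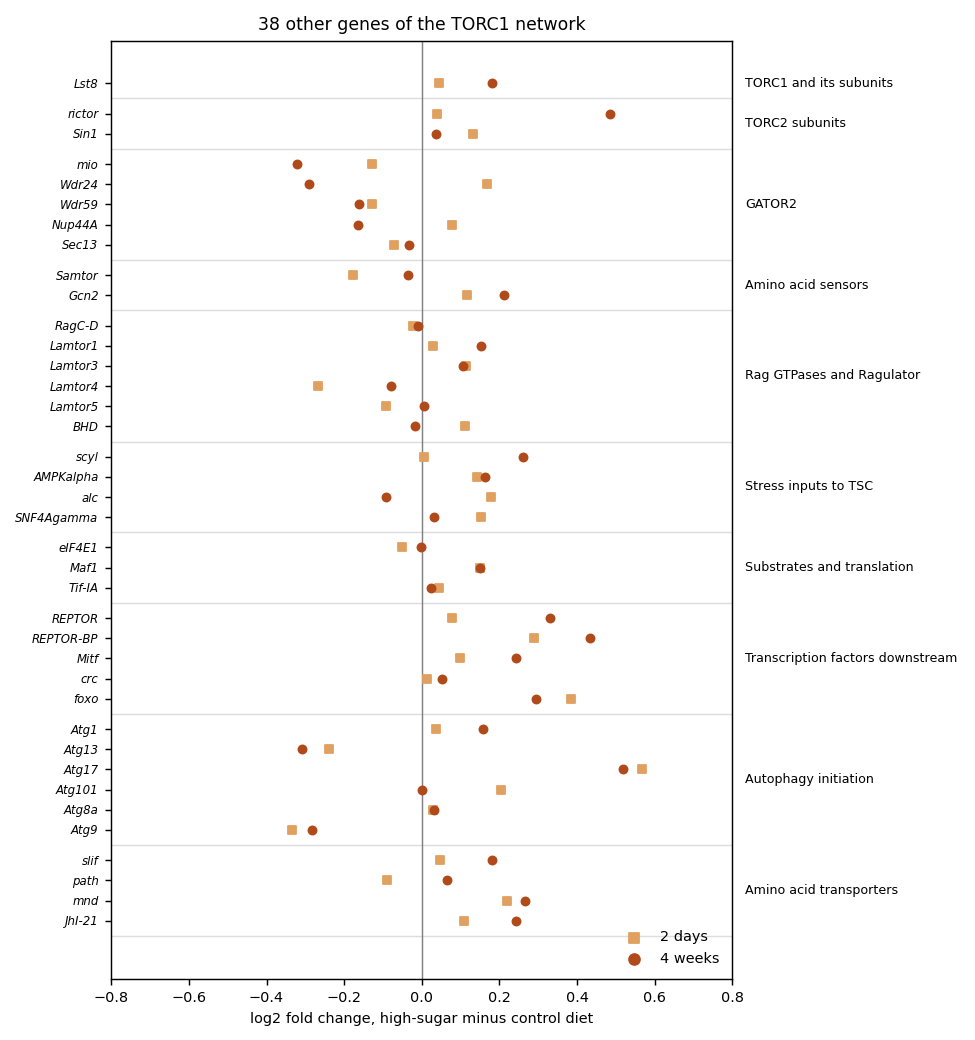
Log2 fold change of high-sugar over control diet at 2 days (squares) and 4 weeks (circles) for 38 other genes of the TORC1 network, grouped by the part of the pathway they belong to. All values lie between -0.33 and 0.57, the 5 GATOR2 genes are below 0 at 4 weeks, and the 5 transcription factors are above 0 at both times. Of the 38 genes, 27 are above 0 at 2 days and 25 at 4 weeks.

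With time, 10 of the 38 rose and 2 fell on control diet, beside 33.1% of all genes called (1488 higher and 1961 lower). On high-sugar diet 14 rose and 2 fell, beside 42.6% (2068 higher and 2370 lower). Of the 6 measured genes of the lysosomal Rag and Ragulator machinery, 3 passed with a rise on control and 5 on high-sugar diet. RagC-D rose by 0.32 on control and 0.34 on high-sugar diet, Lamtor3 by 0.35 and 0.34 and Lamtor5 by 0.50 and 0.59 on the log2 scale. On high-sugar diet Lamtor1 (0.29) and Lamtor4 (0.29) rose as well. Atg17 rose by 1.11 and 1.06, the lysosome regulator Mitf by 0.69 and 0.83 and REPTOR by 0.47 and 0.72.

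Further rises on both diets were those of Sec13 (0.56 and 0.60), which also serves in vesicle coats, Gcn2 (0.40 and 0.49), Lst8 (0.27 and 0.41) and Tif-IA (0.31 and 0.29), a factor for ribosomal RNA synthesis. On high-sugar diet rictor (0.80) and the transporter gene path (0.18) rose and Wdr24 (-0.49) and Atg8a (-0.13) fell. On control diet the amino acid transporter genes slif (-0.46) and JhI-21 (-0.26) fell. Whether the time contrasts differ between diets is the same test as the difference of the diet contrasts. In limma 0 of 38 passed it, beside 0% of all genes. An unadjusted limma p under 0.05 was found for 0 of 38, beside 7.27% of all genes.

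The genes whose values followed Iml1 most closely over the 12 arrays were wit (Pearson's r = 0.948), Cerk (0.917), CG7675 (0.907), CG31122 (0.906) and CG9044 (0.900). These r are descriptions over arrays that share their groups, and the 3 high-sugar arrays of 4 weeks stand apart in all of them. Over the other 9 arrays r was 0.612 for wit, 0.625 for Cerk, 0.269 for CG7675, 0.621 for CG31122 and 0.831 for CG9044. The wit gene, which encodes a type II receptor for BMP and activin ligands, had 198, 210 and 219 on control and 242, 246 and 259 on high-sugar arrays at 2 days. By 4 weeks the arrays read 223, 215 and 230 on control and 343, 369 and 344 on high-sugar arrays. Diets did not overlap at either time, beside 14.2% of all genes without overlap at 2 days and 23.3% at 4 weeks. This follows in part from the choice of wit for its likeness to Iml1, whose diets did not overlap at either time. Cerk, a ceramide kinase gene, went from 580, 511 and 546 on control to 715, 659 and 652 on high-sugar arrays at 4 weeks.

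Running opposite to Iml1 were the trypsin gene epsilonTry (r = -0.946, and -0.413 without high sugar at 4 weeks), the acyl-CoA binding protein gene Acbp5 (-0.900 and -0.570) and CG2233 (-0.895 and -0.678). At 4 weeks epsilonTry had 3059, 4868 and 4215 on control and 1622, 1688 and 1370 on high-sugar arrays, and it encodes a midgut protease. In the same contrast 2 of the 4 tested midgut markers fell in limma, beside 1.93% of all genes called, and the part of the midgut in these r was not tested. Among the members r with Iml1 was highest for S6k, 0.760 over 12 arrays and -0.525 over the 9 arrays without high sugar at 4 weeks, and for Sesn it was 0.625 and -0.199. It was also negative over the 9 arrays for Tsc1 (0.543 and -0.487), Nprl3 (0.479 and -0.132) and Nprl2 (0.248 and -0.565), and positive for Tor (0.588 and 0.065), gig (0.438 and 0.079) and raptor (0.074 and 0.209).

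**Figure D5:**
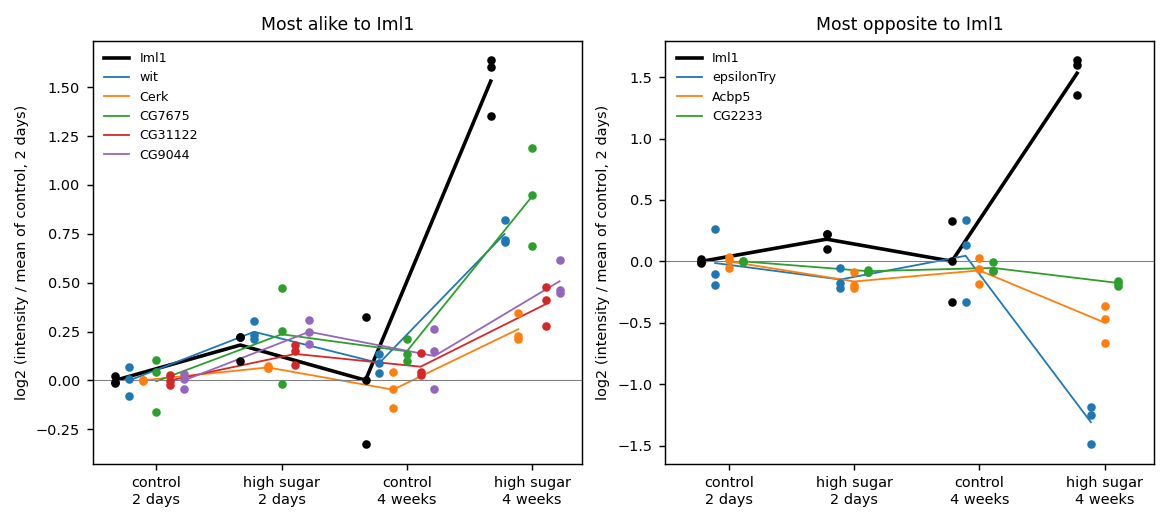
Log2 intensity relative to the gene's mean on control diet at 2 days, for Iml1 with the 5 most alike genes and with the 3 most opposite genes. Points are arrays and lines join group means. Iml1 reaches 1.35 to 1.64 on high-sugar diet at 4 weeks, above every point of the 5 alike genes, and epsilonTry falls to between -1.49 and -1.19.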

How the data were processed

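RNA of homogenised flies was measured on 12 Affymetrix Drosophila 2.0 arrays. The deposited values are linear intensity per probe set, made by the authors with dChip from perfect-match and mismatch probes and normalized between arrays, per the series' design text. Arrays give no read depth, so the number of arrays limits the precision. Probe sets were named through the platform annotation: of 18869, 13647 had 1 symbol, 402 several and 4720 none, and 100 were controls. Intensities were floored at the pooled 20th percentile (11.8) and taken to log2, the lowest 30% of probe sets by mean were left out, and each gene kept its brightest sole probe set. The 4 group means of 10418 genes were fitted in limma 3.58.1 (R 4.3.3, trended eBayes), with Benjamini-Hochberg adjustment over all genes and a threshold of 0.05. The test was checked on simulated data. Tables and figures used Python 3.11.15, pandas 2.3.3 and matplotlib 3.10.9.

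The members and lists were chosen with earlier results of these data known. Named genes are all members, each network gene past the threshold in a contrast, the largest diet change per network list and time, and the 5 most alike and 3 most opposite genes to Iml1. The neighbours of Iml1 and Wdr59, Nup44A, Sec13, REPTOR, foxo, Mitf, crc, Atg9 and Atg13 for diet were named outside this rule, after their values were seen. No p is given for Iml1 in contrasts that use the 4-week arrays. Lobe and Unmet were not matched to a gene, and RagA-B, Lamtor2, chrb, Lkb1, Thor, RpS6, Myc and Rheb were not analysed here. Arrays of 1 replicate number were not treated as pairs: over all 18 same-number pairs the correlation of their deviations was -0.23 to 0.15, above 0.1 in 4, and over the 6 that pair the diets within a feeding time -0.20 to 0.14, above 0.1 in 2. Alternatives covered normalization, floor, filter, variance model, replicate block, arrays in the fit, probe set choice and leaving out each array.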

Additional observations from a re-analysis of the deposited data

How the results depend on the processing

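Of 1021 recomputations of 45 log2 fold changes under up to 23 alternatives, 978 kept their direction and side of the threshold. For Iml1 without a test, this meant keeping direction and shifting by less than the SE of the contrast. Of the rest, 9 lost a call, 3 values of Iml1 shifted by more than that SE and 31 changed sign, none of these 31 a called value. Part of the agreement was fixed in advance. Filter, variance model, replicate block and leaving out an array outside the contrast can move only the adjusted p, not the log2 fold change. The choice of probe set could not move a member either, as each had only 1 of its own. The count of members that passed for time on control diet fell from 1 to 0 with only the arrays compared, and ran from 0 to 1 when single arrays were left out. The cause was not tested. With the replicate number as a block, every count of members that passed was the same (0, 0, 0, 1 and 3), and Iml1 for diet at 2 days was 0.18 (limma adjusted p = 0.837). The difference of the diet contrasts cannot be had from only the arrays compared.

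Values near 0 changed sign. For gig, centring gave -0.00176 for diet at 2 days and 0.00285 for time on control diet, where quantile normalization gave 0.051. For Sesn, quantile normalization gave 0.025 for diet at 2 days. With single arrays left out, log2 values ran as follows. For diet at 2 days they were -0.16 to 0.089 for Nprl2, -0.036 to 0.077 for gig and -0.038 to 0.058 for Sesn. For diet at 4 weeks they were -0.034 to 0.17 for Nprl2, -0.019 to 0.090 for Tor and -0.46 to 0.12 for raptor. For the difference of the diet contrasts they were -0.0041 to 0.25 for Nprl2, -0.10 to 0.047 for Nprl3 and -0.053 to 0.055 for Tor. For time on control diet they were -0.16 to 0.17 for Iml1, -0.059 to 0.20 for Nprl2 and -0.042 to 0.064 for gig, and on high-sugar diet -0.25 to 0.32 for raptor.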
